A study of Mus musculus with 3 samples.

Results

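Levels of 9 genes of steroid hormone synthesis were read in the mouse utero-tubular junction, the narrow passage between uterus and oviduct, without mating and after mating with a vasectomized or a normal male. The genes were Cyp11a1, Hsd3b1, Star, Cyp17a1, Cyp19a1, Fdx1, Fdxr, Hsd17b1 and Lhcgr, of 27962 distinct gene names on the array. They were found as every non-control probe that carries 1 of these names, which gave 14 probes. The set was chosen by the log2 ratios of Hsd3b1 and Cyp11a1 in vasectomized mated versus not mated, where both were much higher, so their values in that comparison are a description and support nothing.

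Steroid hormones are made from cholesterol in a fixed order. Cholesterol is carried into the mitochondrion, where a cytochrome P450 cuts off its side chain to give pregnenolone, with electrons passed on by a reductase and a ferredoxin. Hydroxysteroid dehydrogenases and further P450 enzymes then turn pregnenolone into progesterone, androgens and oestrogens. In the female the known sites are the theca, granulosa and luteal cells of the ovary and the adrenal cortex, while uterus and oviduct are known mainly as targets of these hormones.

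Each of the 3 groups was 1 pool of total RNA from 10 adult CD-1 females in estrus, hybridised to 1 single-colour Agilent array with Cy3 label. The females of the first pool had not mated, those of the second had mated with vasectomized males, and those of the third with normal males. Semen of vasectomized males lacks sperm. The design compares each kind of mating with none, and both kinds with each other. There was no replicate, so every ratio below compares 2 pools with no error between animals or arrays and no test. In a tissue pool, fewer cells of a type and less RNA per cell cannot be told apart.

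Between 65.9% and 70.7% of the non-control spots were well above background on the 3 arrays, and none was saturated. The vasectomized array had the lowest 75th percentile, at a signal of 295, while that of the not mated array was 874 and that of the normal array 708. Probes of 1 gene also agreed least there: of 5830 genes with several probes, 51.9% had probes over 2-fold apart in vasectomized mated versus not mated, against 11.9% of 6309 genes in normal mated versus not mated. Whether this bears on the steroid genes was not tested. Ratios are differences of log2 signals after each array's 75th percentile was subtracted. With the arrays scaled to their spike-in probes instead, all ratios move by -2.58 in vasectomized mated versus not mated, by -0.32 in normal mated versus not mated and by 2.26 in normal versus vasectomized mated. "At least" marks a bound, given where 1 of the 2 arrays had no signal well above background, and 2-fold is the size that counts as different.

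Hsd3b1 and Cyp11a1, which act at the first steps, were low or not detected without mating, highest after vasectomized mating and in between after normal mating. Cyp11a1 is the cholesterol side-chain cleavage enzyme, the step that commits cholesterol to steroid synthesis. Hsd3b1 is a 3-beta-hydroxysteroid dehydrogenase that turns pregnenolone into progesterone. The 250 bases upstream of their annotated starts and of the start of Fdx1, the ferredoxin that serves Cyp11a1, are shown because these 3 genes act together at the side-chain cleavage step and the one after it. Capitals mark a match, on either strand, to a GATA motif (AGATAA or TGATAA) or to the core letters of the cyclic AMP element (TGACG).
Cyp11a1, upstream start, chr9:57997774-57998023, plus strand: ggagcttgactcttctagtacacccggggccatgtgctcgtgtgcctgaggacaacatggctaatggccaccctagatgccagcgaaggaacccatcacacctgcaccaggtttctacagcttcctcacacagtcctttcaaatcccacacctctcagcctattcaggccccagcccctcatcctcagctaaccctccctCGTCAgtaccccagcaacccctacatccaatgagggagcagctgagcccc
Cyp11a1, downstream start, chr9:58014702-58014951, plus strand: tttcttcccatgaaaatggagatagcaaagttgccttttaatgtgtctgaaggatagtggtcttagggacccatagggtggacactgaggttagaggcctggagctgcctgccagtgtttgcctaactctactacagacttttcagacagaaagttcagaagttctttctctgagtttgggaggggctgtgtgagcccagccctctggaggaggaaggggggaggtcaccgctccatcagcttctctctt
Hsd3b1, chr3:98859795-98860044, minus strand: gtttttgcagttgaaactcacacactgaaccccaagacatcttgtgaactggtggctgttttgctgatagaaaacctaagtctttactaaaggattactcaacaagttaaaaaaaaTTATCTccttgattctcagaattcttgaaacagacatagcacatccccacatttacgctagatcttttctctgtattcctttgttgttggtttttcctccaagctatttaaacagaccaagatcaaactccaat
Fdx1, chr9:51963603-51963852, minus strand: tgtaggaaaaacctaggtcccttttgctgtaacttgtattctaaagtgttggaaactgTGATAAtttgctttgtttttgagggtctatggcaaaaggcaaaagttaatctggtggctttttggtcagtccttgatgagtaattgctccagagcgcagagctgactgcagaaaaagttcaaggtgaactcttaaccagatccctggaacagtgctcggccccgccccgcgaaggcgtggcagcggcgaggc
The sequences are those of RefSeq on GRCm38.p6, which gave 9 windows for 6 of the 9 genes. The Cyp11a1 match begins 50 bases upstream of its start, the Hsd3b1 match 134 bases and the Fdx1 match 192 bases. Of 32851 windows of this length, 16.6% held a GATA match and 17.8% a TGACG match. No window of the 6 genes held AAGGTCA or AAGGCCA, the letters bound by NR5A receptors, which 9.09% of all windows held. A TATAAA match, held by 12.4% of all windows, was found among these genes only in windows of Cyp19a1. Such matches are letters in a window and not shown to be bound sites.

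The Hsd3b1 probe (mm7, chr3:98647842-98647901) gave a processed signal of 24.6 ± 3.66 without mating, 2299 ± 229.9 after vasectomized mating and 329 ± 32.9 after normal mating. The ± here is the error that the scanning software gives for 1 spot, not a spread between animals. The probe was well above background on all 3 arrays, lowest without mating and highest after vasectomized mating. After scaling, Hsd3b1 was 277-fold higher after vasectomized than without mating, a log2 ratio of 8.11. It was 16.5-fold higher after normal mating, a log2 ratio of 4.04, and 16.8-fold lower after normal than after vasectomized mating. Over the alternative processings the log2 ratio lay between 5.53 and 8.27 after vasectomized mating and between 2.49 and 4.24 after normal mating.

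The brighter Cyp11a1 probe (mm7, chr9_random:3880883-3880942) gave a signal of 7.56 ± 3.51 without mating, which was not well above background, 659 ± 65.9 after vasectomized mating and 55.9 ± 5.86 after normal mating. The other Cyp11a1 probe (chr9_random:3881114-3881173) gave 5.13, 344 and 58.2 in the same order, so both probes placed the arrays in the same order. Cyp11a1 was at least 147-fold higher after vasectomized than without mating by the brighter probe, a log2 bound of 7.20, and at least 77.1-fold by the other. These bounds hold for the main processing: the log2 value was 4.62 with spike-in scaling and 4.55 with normexp background correction. After normal mating it was at least 5.21-fold higher, a log2 bound of 2.38, and the other probe gave 2.44. Normal mated against vasectomized mated, it was 28.3-fold lower by the brighter probe and 14.2-fold by the other. With normexp the log2 bound after normal mating was 0.92, below 2-fold. Bounds against not mated could only come out higher, so their direction is not read.

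**Figure D1:**
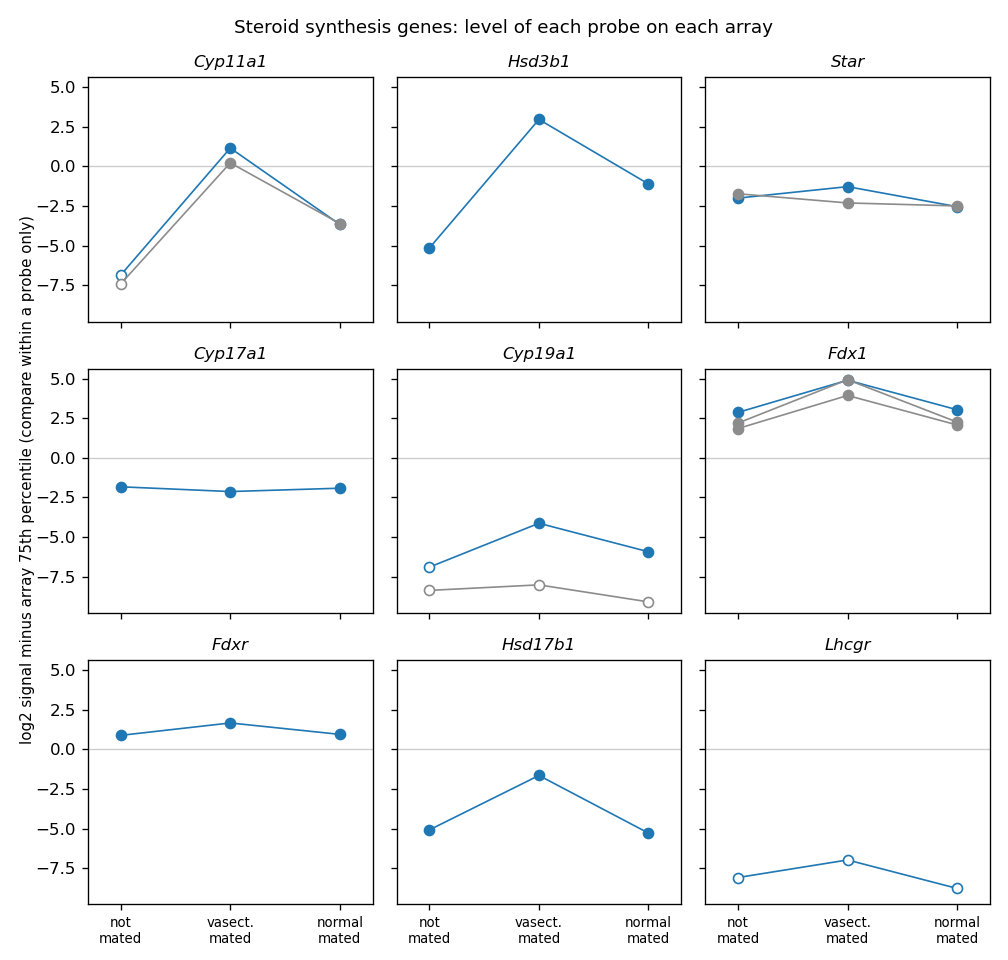
Level of every probe of the 9 genes on the 3 arrays, as log2 signal minus the array's 75th percentile (vertical axis), with blue for the probe used as the gene's value, grey for its other probes and open circles where a probe was not well above background; lines join 1 probe across arrays. Both Cyp11a1 probes and the Hsd3b1 probe peak on the vasectomized array, and Lhcgr is open on all 3 arrays.

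Both genes lay near the end of the distribution of all genes in vasectomized mated versus not mated, which is how they were chosen: Hsd3b1 ranked 5 and Cyp11a1 ranked 12 of 19311 genes. In normal mated versus not mated, which shares the not mated array, Hsd3b1 ranked 82 and Cyp11a1 ranked 361 of 19302. The Cyp11a1 ratios to not mated are bounds, so its ranks in both are those of its lower limit among measured ratios and other limits. Counted from the lowest ratio of normal versus vasectomized mated, Cyp11a1 ranked 25 and Hsd3b1 ranked 70 of 18989, on a comparison that shares the vasectomized array.

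**Figure D2:**
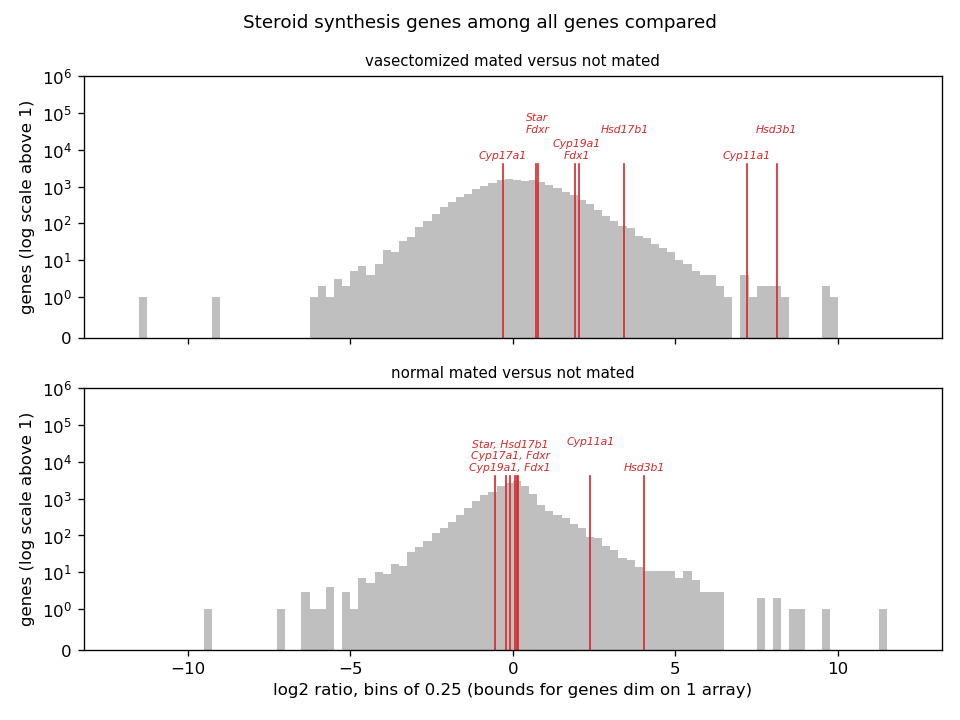
Number of genes (vertical axis, log scale above 1) by log2 ratio in bins of 0.25 (horizontal axis) for each mating against not mated, with red lines at the steroid genes compared. Hsd3b1 at 8.11 and Cyp11a1 at a bound of 7.20 stand in the right tail after vasectomized mating, and after normal mating they stand at 4.04 and 2.38 while the other 6 genes lie near 0.

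The genes that feed the pathway did not share this pattern. Star, the protein that moves cholesterol to the inner mitochondrial membrane and usually limits the rate of synthesis, gave signals of 219 without mating, 122 after vasectomized mating and 122 after normal mating by its main probe (mm7, chr8:24571477-24571536). Its other probe (chr8:24570752-24570811) gave 264, 59.7 and 126. After scaling, the Star log2 ratio in vasectomized mated versus not mated was 0.72 by the main probe and -0.58 by the other, so the direction was not settled. In normal mated versus not mated both probes were lower, by log2 ratios of -0.54 and -0.77, each within 2-fold. Lhcgr, the receptor for luteinizing hormone that drives ovarian steroid synthesis, gave 3.20, 2.33 and 1.61 (mm7, chr17:87049193-87049252). Lhcgr was not well above background on any array and was not compared.

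Among the electron donors of the mitochondrial enzyme, Fdx1 was higher after vasectomized mating by the main scaling. Fdx1, the ferredoxin, gave signals of 6382 without mating, 8785 after vasectomized mating and 5804 after normal mating by its main probe (mm7, chr9:51926999-51927058). Another probe (chr9:51921779-51921838) gave 4007, 8975 and 3383. The last probe, which overlaps the main probe (chr9:51926979-51927038), gave 3150, 4507 and 2985. All 3 probes were highest on the vasectomized array before scaling, although that array was the dimmest. The log2 ratio in vasectomized mated versus not mated was 2.03, a 4.08-fold difference, and 2.73 and 2.09 by the other probes, but with spike-in scaling that of the main probe was -0.55. In normal mated versus not mated the 3 probes lay between 0.06 and 0.23. Fdxr, the reductase that passes electrons to Fdx1, gave 1605, 931 and 1359 (mm7, chr11:115377298-115377357). Its log2 ratios were 0.78 in vasectomized mated versus not mated, which spike-in scaling turned to -1.80, and 0.06 in normal mated versus not mated, both within 2-fold.

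Of the later enzymes, Hsd17b1 was higher after vasectomized mating, Cyp19a1 was near background and Cyp17a1 was within 2-fold. Hsd17b1, which turns oestrone into oestradiol, gave signals of 25.7 without mating, 93.7 after vasectomized mating and 18.1 after normal mating (mm7, chr11:101189262-101189321). It was 10.8-fold higher after vasectomized than without mating, a log2 ratio of 3.43 that was 0.85 with spike-in scaling. After normal mating its log2 ratio to not mated was -0.20, within 2-fold, and it was 12.4-fold lower than after vasectomized mating. Hsd17b1 was thus high on 1 array alone, unlike Hsd3b1, which was higher on both mated arrays.

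Cyp19a1, the aromatase that makes oestrogens from androgens, gave 7.35 ± 3.32 without mating, 16.9 ± 2.32 after vasectomized mating and 11.7 ± 2.01 after normal mating by its main probe (mm7, chr9:54196600-54196659). It was well above background on the mated arrays only, and its other probe (chr9:54203407-54204004) gave between 1.14 and 2.66 and was not above background on any. Cyp19a1 was at least 3.78-fold higher after vasectomized mating and at least 1.09-fold higher after normal mating. These bounds hold for the main processing: with spike-in scaling Cyp19a1 gave no bound above not mated in either comparison. Cyp19a1 was 3.48-fold lower after normal than after vasectomized mating, a log2 ratio of -1.80 that was 0.46 with spike-in scaling. Cyp17a1, which makes androgens, gave 246, 67.5 and 188 (mm7, chr19:46564738-46565351). Its log2 ratios were -0.30 in vasectomized mated versus not mated and -0.09 in normal mated versus not mated, and spike-in scaling moved the first to -2.88.

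Counted over the set, 5 of the 8 genes compared were at least 2-fold higher after vasectomized mating and 0 were lower, where 25.5% of all 19543 genes compared were higher and 16.3% lower, 41.9% in all. With spike-in scaling 2 of the 8 were higher and 3 lower, and 247 of all genes higher and 16220 lower against 4990 and 3193 by the main scaling. This comparison chose 2 of the genes, and Cyp11a1 and Cyp19a1 could be compared with not mated only through the mated arrays, so they had to come out higher. Nothing is read from that count. The median log2 ratio was 1.97 over the 8 genes and 0.18 over all genes. In normal mated versus not mated, 2 of 8 were higher and 0 lower, against 9.53% and 12.8% of 19859 genes, 22.4% in all, with medians of 0.09 and -0.05. The 2 were Hsd3b1 and Cyp11a1, the latter as a bound. Over all genes here the main scaling gave 1893 higher and 2546 lower, the array median 2383 and 1824, cyclic loess 2199 and 1959, and spike-in probes 1318 and 4229. In normal versus vasectomized mated, 0 were higher and 6 lower, against 14.1% and 26.7% of 19865 genes, 40.8% in all, with medians of -1.83 and -0.27. The 6 were Cyp11a1, Hsd3b1, Star, Cyp19a1, Fdx1 and Hsd17b1, and with spike-in scaling Cyp11a1, Hsd3b1 and Hsd17b1 were lower by 2-fold while Star, Cyp19a1 and Fdx1 turned to log2 ratios of 0.99, 0.46 and 0.39. That scaling gave 15744 of all genes higher and 229 lower, against 2792 and 5310.

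**Figure D3:**
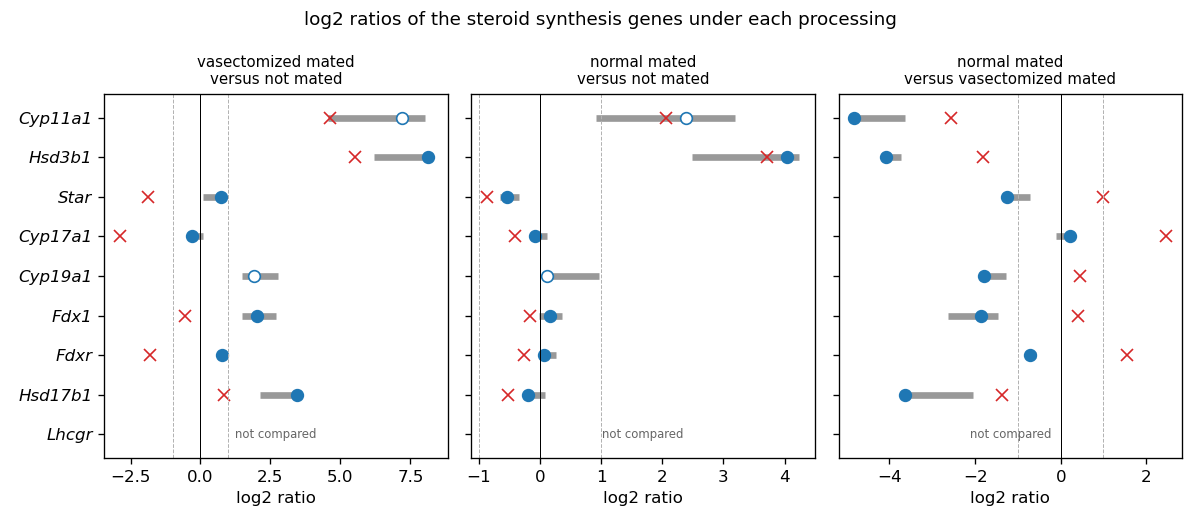
log2 ratios of the 9 genes in the 3 comparisons (horizontal axes, each with its own scale), with circles for the main processing (open where the value is a bound), grey bars for the range over the alternatives other than spike-in scaling, red crosses for spike-in scaling and dashed lines at 2-fold. Hsd3b1 and Cyp11a1 lie right of 0 in both comparisons with not mated, Cyp11a1 as bounds that can only lie there. Star, Fdx1 and Fdxr cross 0 under spike-in scaling after vasectomized mating.

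The mouse has several close copies of Hsd3b1, and most of them were near or below background on these arrays. Hsd3b6 gave signals of 2.68, 17.5 and 5.94 in the order not mated, vasectomized and normal, and was at least 3.92-fold higher after vasectomized mating. The probes of Hsd3b2 disagreed. The main one gave 2.77, 5.95 and 27.4 and was above background after normal mating only, with a log2 bound of 1.35 against not mated. Another gave 2.79, 8.88 and 2.55 and was above background after vasectomized mating only, with a log2 bound of 0.99 against not mated, and the last was above background on no array. Hsd3b4 gave 25.5, 5.71 and 19.5, with a log2 ratio of -0.08 in normal mated versus not mated. Hsd3b3 was above background after normal mating only, at 8.85, and Hsd3b5 on no array. Hsd3b7, which acts in bile acid synthesis, gave 6781, 1997 and 4187 and stayed within 2-fold in all 3 comparisons. Signal of 1 copy on the probe of another cannot be told apart from its own here.

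Of 21 further genes of steroid enzymes and their helpers, 6 of 14 compared were higher and 2 lower after vasectomized mating, where 25.5% and 16.3% of all genes were. The median log2 ratio was 0.40, or -2.74 with spike-in scaling. After normal mating 3 of 16 were higher and 2 lower, where 9.53% and 12.8% of all genes were, with a median of 0.43. The higher genes included bounds, which could only come out higher, so these counts are not read. The bounds were Hsd3b6, Akr1c6, Akr1cl and Mgarp after vasectomized mating, and Hsd3b2 and Mgarp after normal mating. Mgarp, a mitochondrial protein found in steroid-forming tissues, gave 1172 after vasectomized and 410 after normal mating and was at least 263-fold higher after vasectomized and at least 38.2-fold higher after normal mating. Like Cyp11a1, Mgarp was not well above background without mating and was highest after vasectomized mating. Akr1cl, an aldo-keto reductase, gave 7.03, 169 and 16.6 and was at least 37.8-fold higher after vasectomized mating. Hsd17b7, which reduces oestrone and also acts in cholesterol synthesis, had log2 ratios of 1.03 after vasectomized mating, which was -1.55 with spike-in scaling, and 1.73 after normal mating. Srd5a1, the 5-alpha-reductase that turns progesterone and testosterone into reduced forms, was lower after both, by log2 ratios of -2.85 and -2.67. Por, the electron donor of microsomal P450 enzymes, was at 1.53, or -1.05 with spike-in scaling, and at 0.57.

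Genes that bring cholesterol to the mitochondrion were counted by 1 probe each. Of the 15 on the array, 1 of 14 compared was higher and 3 were lower after vasectomized mating, with a median of -0.03. The shares of all genes were 25.5% and 16.3%. After normal mating 3 of 15 were higher and 2 lower, where 9.53% and 12.8% of all genes were, with a median of 0.14. Probes of 1 gene could disagree: after vasectomized mating those of Soat1 ran from -1.62 to 2.95 and those of Lipe from -2.07 to -0.46. Vdac1, a channel of the outer mitochondrial membrane, had a log2 ratio of 1.26 after vasectomized mating, which was -1.33 with spike-in scaling, and Abca1, which exports cholesterol, was at -1.51 and -1.09.

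Of 16 transcription factors and cofactors known to act on steroidogenic genes, 2 of 14 compared were higher and 2 lower after vasectomized mating. The shares of all genes were 25.5% and 16.3%. After normal mating 2 of 16 were higher and 3 lower, where 9.53% and 12.8% of all genes were. Nr5a2, a nuclear receptor of granulosa and luteal cells, gave 56.8, 521 and 18.6. It was 27.2-fold higher after vasectomized mating and 2.48-fold lower after normal mating. Nr5a1, its relative that marks steroid-forming cells, gave 80.5, 14.5 and 86.2 and was within 2-fold of not mated after both by the main scaling. With spike-in scaling the Nr5a1 log2 ratio after vasectomized mating was -3.48. Nr0b1, a repressor of Nr5a1, was above background after normal mating only, at 43.8, at least 4.08-fold above not mated.

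Among 15 genes of gonadotropin and cyclic AMP signalling, 5 of 14 compared were higher and 2 lower after vasectomized mating, with a median of 0.13. The shares of all genes were 25.5% and 16.3%. After normal mating 2 were higher and 5 lower, where 9.53% and 12.8% of all genes were, with a median of -0.19. Mrap, the accessory protein that takes the corticotropin receptor to the cell surface, gave 34.3, 900.2 and 133. It was 77.8-fold higher after vasectomized and 4.76-fold higher after normal mating, in the same order of arrays as Hsd3b1 and Cyp11a1. Fshr, the receptor for follicle-stimulating hormone, was above background on no array, like Lhcgr.

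Of 15 genes that inactivate or conjugate steroids, 3 of 14 compared were higher and 3 lower after vasectomized mating. The shares of all genes were 25.5% and 16.3%. After normal mating 2 of 15 were higher and 3 lower, where 9.53% and 12.8% of all genes were. Hsd17b2, which oxidises oestradiol back to oestrone, gave 37.2, 426 and 2718. It was 34.0-fold higher after vasectomized and 90.2-fold higher after normal mating, so unlike Hsd17b1 and Hsd3b1 it was highest after normal mating. Hsd11b2, which inactivates corticosterone, was lower after both, by a log2 bound of -4.35 and a log2 ratio of -4.65. With spike-in scaling, vasectomized mated versus not mated gave 10 of the further enzymes, 14 of the cholesterol genes, 12 of the regulators, 11 of the signalling genes and 12 of the inactivating genes lower by 2-fold.

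Some markers of ovarian cells also differed between the arrays by the main scaling. Without Cyp19a1 and Hsd17b1, 7 of 13 granulosa and cumulus markers compared were higher and 2 lower after vasectomized mating, with a median log2 ratio of 1.30. Of all genes compared, 25.5% were higher and 16.3% lower there. Among the 7, Grem1 was a bound that could only come out higher. After normal mating 2 of 14 were higher and 5 lower, where 9.53% and 12.8% of all genes were, with a median of -0.68. With spike-in scaling 1 gene of the whole list was higher and 9 lower after vasectomized mating, with a median of -1.28. Of the 15 granulosa markers, between 12 and 13 were well above background on each array. Their summed level, in multiples of the array's 75th percentile, was 6.46 without mating, 16.4 after vasectomized and 14.6 after normal mating. Inhbb, an inhibin beta subunit, made up 3.34, 9.02 and 11.2 of these, and without it the sums were 3.13, 7.38 and 3.37. The Inhbb log2 ratio after vasectomized mating was 1.43 by the main probe and -0.12 by the other. Inha, the inhibin alpha subunit, gave 83.6, 156 and 76.9, with a log2 ratio of 2.47 after vasectomized mating by its main probe that was -0.11 with spike-in scaling. Foxl2, the granulosa transcription factor, was above background without mating only, at 28.5, and Amh after normal mating only, at 8.56. The 7 theca and luteal markers outside the set had medians of 0.04 and 0.33 and summed levels of 9.33, 7.76 and 9.23. Insl3, a theca hormone, gave 447, 155 and 816, with log2 ratios of 0.04 and 1.17.

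Several oocyte markers were detected on the mated arrays and not without mating. By the main probe of each gene, 3 of the 17 oocyte markers were well above background without mating, 14 after vasectomized and 11 after normal mating. Zp2, Nlrp5 and Figla were above background on no array. Of the 14 compared after vasectomized mating, 11 were bounds, and of the 11 compared after normal mating 8 were bounds, which could only come out higher, so their counts are not read. The 3 measured on all arrays by their main probe were Gdf9, H1f8 and Oog1. The summed level of the list was 1.83, 6.82 and 3.47, of which Oog1 made up 1.62, 1.57 and 1.98. With spike-in scaling the log2 ratio of the sums after vasectomized mating was -0.68, against 1.90 by the main scaling. Gdf9, an oocyte growth factor, gave 81.2, 341 and 258, with log2 ratios of 3.64 and 1.97. Zp3, a protein of the egg coat, gave 10.9, 57.8 and 35.6 by its main probe, with log2 bounds of 3.69 and 1.73. Its other probe was well above background on all 3 arrays, at 20.3, 31.1 and 16.0, with log2 ratios of 2.18 and -0.04. H1f8, the oocyte linker histone, gave 46.6, 613 and 398, with log2 ratios of 5.29 and 3.40. Oog1, another gene of oocytes, was at -0.04 and 0.29.

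Of the 8 adrenal cortex markers, 5, 5 and 7 were well above background, with summed levels of 0.532, 3.65 and 1.02. Mrap made up 3.06 of the sum after vasectomized mating, and without it the sums were 0.493, 0.593 and 0.829. After vasectomized mating 3 of 5 compared were higher and 1 lower, where 25.5% and 16.3% of all genes were. After normal mating 3 of 7 were higher and 1 lower, where 9.53% and 12.8% of all genes were. Of these 7, Cyp21a1 and Nr0b1 were bounds that could only come out higher, and Nr0b1 was among the 3. With spike-in scaling 1 was higher and 3 lower after vasectomized mating. Cyp21a1, the 21-hydroxylase of the adrenal, was above background after normal mating only, at 18.6, and Cyp11b2 on no array. The labelled tissue's markers were all present: by 1 probe each, all 15 oviduct and uterine identity genes were well above background on all 3 arrays. Their summed levels were 729, 746 and 872, of which Ovgp1 made up 268, 364 and 322. With spike-in scaling the log2 ratio of the sums after vasectomized mating was -2.55, against 0.03 by the main scaling. After vasectomized mating 2 of the 15 were higher and 5 lower, where 25.5% and 16.3% of all genes were. After normal mating 4 were higher and 5 lower, where 9.53% and 12.8% of all genes were. By its main probe Ovgp1, the oviduct glycoprotein, had log2 ratios of 0.44 and 0.26 after vasectomized and normal mating. Its other probe gave -2.99 and -0.31, so its direction was not settled. Pax8, a factor of oviduct epithelium, was at -3.76 and -0.92 by its main probe, and the other gave bounds of -0.72 and -1.80. Foxj1, of ciliated cells, was at 1.26, or -1.32 with spike-in scaling, and at 1.87, and Myh11, of smooth muscle, at -1.38 and -1.89. The part of other cells or tissues in the values of the steroid genes was not tested.

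**Figure D4:**
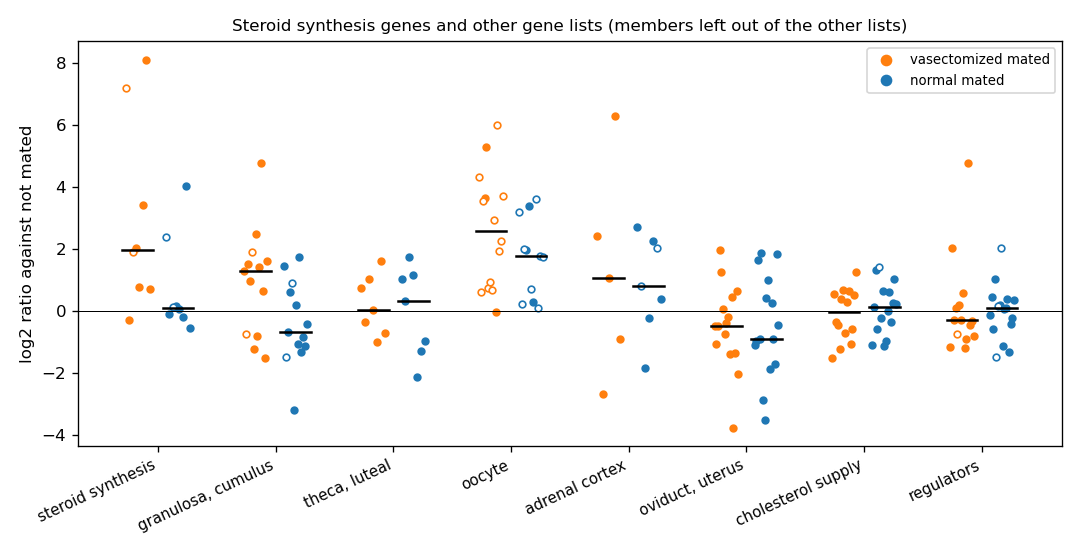
log2 ratio against not mated (vertical axis) of each gene compared, for vasectomized mated (orange) and normal mated (blue), by gene list, with members of the steroid set left out of the other lists; open circles are bounds and black bars are medians. The medians after vasectomized mating are 1.97 for the steroid genes, 1.30 for granulosa and 0.04 for theca and luteal markers. They are 2.59 for oocyte and 1.05 for adrenal markers, -0.49 for identity genes, -0.03 for cholesterol genes and -0.31 for regulators. After normal mating, in the same order, they are 0.09, -0.68, 0.33, 1.79, 0.80, -0.89, 0.14 and 0.09. With spike-in scaling the median of the whole granulosa list after vasectomized mating is -1.28. Most oocyte points are bounds, which can only lie above 0.

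The genes whose pattern lay nearest to Cyp11a1 and Hsd3b1 were found by the distance between pairs of log2 ratios (each mating against not mated), over 3 arrays and 14069 candidate genes. Candidates had an official-style symbol, no outlier flag and a signal well above background on both mated arrays, so genes dim on a mated array could not appear. The choice of nearest genes uses the comparison that chose Cyp11a1 and Hsd3b1 and is a description. The values of Cyp11a1, Oosp1, Rhox6 and Mgarp are bounds, so distances that involve them, and their order, depend on the lowest signal counted as above background. Nearest to Cyp11a1 were Il6, an inflammatory cytokine, at a distance of 0.69, Mrap at 0.93, Oosp1, a secreted oocyte protein, at 1.72, Rhox6, a homeobox gene, at 1.75 and Slc4a7, a bicarbonate transporter, at 1.76. Il6 had log2 ratios of 6.52 and 2.44 in vasectomized and normal mated versus not mated. Nearest to Hsd3b1 were Ptgs2, the inducible prostaglandin synthase, at 1.08, Mgarp at 1.22, Cyp11a1 at 1.89, Cxcl1, a neutrophil-attracting chemokine, at 1.98 and Oosp1 at 2.15. Ptgs2 had log2 ratios of 7.11 and 4.46.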

How the data were processed

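Total RNA of 3 pools was measured on 3 arrays, grouped by the label for mating. How long after mating tissue was taken is not stated there. Per the file headers, each deposited intensity is a linear processed signal from Agilent Feature Extraction (version 10.5.1.1), background-corrected within its array and without scaling across arrays. The submitters' processing notes name version 9.5.3. Probe positions are those of the file headers' design, on mm7.

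From these, log2 signals were computed and each array's 75th percentile, taken over its 43379 non-control spots, subtracted with R 4.3.3 (data.table version 1.17.8, limma 3.58.1) and Python 3.11.15 (numpy 2.4.6, pandas 2.3.3, matplotlib 3.10.9). Spots with outlier flags were left out and the spots of a probe averaged. Of 41174 probes, 23075 were named through accessions, 6587 by symbol and 3072 by synonym from RefSeq's genes on GRCm38.p6, and 8440 kept the name the files give. A gene took its brightest probe over 3 arrays, with probes well above background preferred. A ratio with 1 array well above background is a bound against the dim signal or, if higher, that array's lowest signal well above background. With neither array well above background the gene was not compared. Where the brighter signal did not exceed that limit, no ratio was given, but the gene stayed in the number compared and could not be called. Ranks cover only genes with a ratio: 19311, 19302 and 18989 of the 19543, 19859 and 19865 compared, in the order of the results. The median SD of log2 signal between replicate spots was 0.0573, 0.0644 and 0.0543 on the not mated, vasectomized and normal arrays, which covers hybridisation and scanning only. The number of arrays limits the precision.

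The genes of the set and the 11 lists were chosen with earlier results of these data known. Named genes are all members, up to 4 genes of a list with the largest ratios, defining markers and the 5 nearest genes by pattern. The other Hsd3b genes were added after their values were seen. Alternatives were other scalings, normexp background correction (offset 50), the median over probes, other filters on dim probes and other fold sizes. The counting step was tested on simulated data. Cyp11b1 was not analysed here.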

Additional observations from a re-analysis of the deposited data

Results flagged for a closer look

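Nr5a2, the nuclear receptor of granulosa and luteal cells, was on opposite sides of not mated in both matings. Its log2 ratio was 4.76 after vasectomized and -1.31 after normal mating, a difference of -6.07, from signals of 56.8 without mating, 521 after vasectomized and 18.6 after normal mating. Ptgfr, the receptor for prostaglandin F2-alpha, which ends progesterone synthesis in luteal cells, gave 169, 174 and 55.2, with log2 ratios of 1.62 and -1.31 and a difference of -2.92. With spike-in scaling the Nr5a2 ratio after vasectomized mating was 2.18 and that of Ptgfr was -0.96, so only Nr5a2 kept opposite directions. Neither difference was tested, since each rests on 1 array per group and both ratios share the not mated array.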

How the results depend on the processing

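Hsd3b1 kept its direction in all 3 comparisons under every alternative run, and Cyp11a1 did so in normal versus vasectomized mated. Against not mated, Cyp11a1 was a bound under every scaling, and such a bound could only come out higher, so its direction there is not read. Cyp11a1 gave no ratio to not mated where both arrays had to be well above background. The set's count of genes higher in vasectomized mated versus not mated went from 5 to 3 with that filter and to 2 with spike-in scaling, which also gave 3 lower. The count higher in normal mated versus not mated went from 2 to 1 with normexp and to 1 with both arrays above background. In normal versus vasectomized mated, spike-in scaling gave 2 higher and 3 lower. Among named values of at least 2-fold, spike-in scaling turned the direction in vasectomized mated versus not mated for Fdx1 (-0.55), Akr1b7 (-0.16), Foxj1 (-1.32), Fst (-1.07), Hsd17b7 (-1.55), Inha (-0.11), Por (-1.05), Ptgfr (-0.96) and Vdac1 (-1.33), and for the list medians of adrenal (-1.53) and granulosa markers (-1.28). In normal versus vasectomized mated it turned Cyp19a1 (0.46), Fdx1 (0.39), Star (0.99), Cxcl1 (0.88), Fst (0.065), Gdf9 (0.59), H1f8 (0.37), Vdac1 (1.24) and Zp3 (0.29), and the medians of gonadotropin signalling (1.23), granulosa (0.79) and oocyte markers (0.59). Normexp turned Nr5a1 there (-0.10). Values within 2-fold also changed sign, among the set with spike-in scaling Star (-1.86) and Fdxr (-1.80) in vasectomized mated versus not mated and Fdxr (1.54) in normal versus vasectomized mated, and with normexp Cyp17a1 in these comparisons (0.094 and -0.12). In normal mated versus not mated, Cyp17a1, Fdx1, Fdxr and Hsd17b1, all within 2-fold, changed sign under at least 1 alternative. The cause was not tested.

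Over all genes, spike-in scaling gave 247 higher and 16220 lower in vasectomized mated versus not mated, against 4990 and 3193. It gave 4229 lower in normal mated versus not mated, against 2546, and 15744 higher and 229 lower in normal versus vasectomized mated, against 2792 and 5310. Normexp gave 1717 lower in vasectomized mated versus not mated, 933 lower in normal mated versus not mated and 1702 higher in normal versus vasectomized mated, where no filter on dim probes gave 11118 lower. At 3-fold the higher and lower counts were 2715 and 1498, 973 and 957, and 1233 and 2683 in these comparisons, in that order. At 1.5-fold 5049 were lower in vasectomized mated versus not mated, 3374 higher and 4781 lower in normal mated versus not mated, and 4504 higher in normal versus vasectomized mated. The lowest signals well above background lie at log2 levels of -6.04, -5.67 and -6.75 on the not mated, vasectomized and normal arrays, which limits the bounds of Cyp11a1 and Cyp19a1. No paired analysis was possible because each group has 1 array, and none could be left out.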

Other observations

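Receptors for steroid hormones, of which 9 were on the array, were described apart from the synthesis genes. Of 7 compared in vasectomized mated versus not mated, 1 was higher and 3 were lower, where 25.5% and 16.3% of all genes were. The median log2 ratio was -0.91, or -3.49 with spike-in scaling. The receptor counted as higher was Esr1, the oestrogen receptor alpha, named after its values were seen, at 1.96 by its main probe and -3.30 by the other. In normal mated versus not mated, 0 of 8 were higher and 3 were lower, where 9.53% and 12.8% of all genes were, with a median of -0.68. Akr1b7, an aldo-keto reductase of the adrenal and of the male and female tracts, gave signals of 69.8 without mating, 126 after vasectomized and 371 after normal mating, with log2 ratios of 2.43, or -0.16 with spike-in scaling, and 2.71. Fst, the activin-binding protein, had log2 ratios of 1.51, or -1.07 with spike-in scaling, and -0.68.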
